A study of Mus musculus with 6 samples.

Results

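ABC genes encode the ATP-binding cassette family, and 45 of them were compared between haematopoietic stem cells (HSC) of wildtype mice and of mice with reduced PU.1. Members were the genes whose symbol, alone on its probe set, was Abc followed by a subfamily letter from a to g and a number. They were read by 92 of the 44991 probe sets of the value table and made up 45 of the 18186 genes that could be named. Bone marrow HSC, sorted by flow cytometry, had been hybridised to mouse expression arrays (Affymetrix 430 2.0), with 3 arrays of the wildtype (WT) and 3 of the PU.1 knockdown (KD) genotype. Each array held RNA pooled from 3 animals, so the pools were the replicates. The sources used here do not state how PU.1 was reduced, nor the strain, age or sort markers. All 6 samples shared the tissue, the sort and 2 rounds of RNA amplification.

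ABC proteins couple ATP binding and hydrolysis in their cassette domains to movement of a substrate across a membrane. Drug efflux pumps of the family, above all Abcg2 and the Abcb1 proteins, expel fluorescent dyes from HSC, which is the basis of the side population assay. Other members move sterols, phospholipids, conjugated toxins, porphyrins, peptides and very long chain fatty acids. Members of subfamilies E and F have no membrane part and act on ribosomes. PU.1, the product of Spi1, is a transcription factor of the ETS family that directs myeloid and B lymphoid development.

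Intensities are given on the log2(value + 16) scale after quantile normalisation, and differences are knockdown minus wildtype with their standard error (SE) from limma. A gene was represented by its probe set of highest mean. Spi1 itself differed by -1.76 (SE 0.43), with all 3 knockdown pools below all 3 wildtype pools and a limma adjusted p of 0.503 (Benjamini-Hochberg, BH). Stem and progenitor markers lay above the median probe set for 12 of 12 genes measured, out of 14 listed. So did 7 of 7 erythroid markers, 11 of 12 neutrophil markers and 66% of all genes, so this does not single out stem cells. Of the 12, 2 had higher means in the knockdown pools and 10 lower, where 53.4% of all genes were higher. Lists of other cell types differed between pools. Means of the 9 megakaryocyte and platelet markers ran from 8.73 to 10.01 in wildtype and from 7.0 to 8.84 in knockdown pools. Those of the 8 mast cell and basophil markers ran from 6.23 to 7.42 and from 7.70 to 8.78, with 7 higher and 1, Hdc, lower (-0.72). Those of the 5 eosinophil markers ran from 7.53 to 9.38 and from 5.63 to 7.19. Of these 5, Epx, Prg2 and Prg3 differed by -3.69 to -3.06, Ccr3, at a low level, by -0.36 and Il5ra by 0.0018. Lower means were also seen for 10 of 10 monocyte and macrophage and 6 of 8 B lymphoid markers. Higher means were seen for 9 of 12 neutrophil, 7 of 8 T and NK, 4 of 7 erythroid and 3 of 7 endothelial and stromal markers. In bulk samples, fewer cells of a type and less RNA per cell cannot be told apart, and the part of these cells in the differences below was not tested.

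Promoters of subfamily F, whose members had higher means in the knockdown pools with all 6 arrays, are shown because the knocked-down protein binds DNA. A promoter of the stem cell pump Abcg2 is shown too, picked among its starts because it holds the PU.1 site given below. These promoters are from RefSeq on build GRCm38.p6, each being the 250 bases before a transcription start, written 5′ to 3′. Capitals mark matches on either strand to the motifs searched. These were a PU.1 site (GAGGAAGT), the shorter ETS site within it (AGGAAGT), the AP-1 site (TGANTCA), the E-box (CACGTG) bound by Myc, and the GC box (GGGCGG).
Abcf1 upstream, chr17:35969751-35970000, minus strand: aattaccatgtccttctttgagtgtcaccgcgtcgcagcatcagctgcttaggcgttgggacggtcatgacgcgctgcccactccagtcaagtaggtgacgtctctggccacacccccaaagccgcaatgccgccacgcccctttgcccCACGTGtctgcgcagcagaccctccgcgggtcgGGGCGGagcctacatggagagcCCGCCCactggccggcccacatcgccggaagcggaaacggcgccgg
Abcf2 upstream, chr5:24577347-24577596, minus strand: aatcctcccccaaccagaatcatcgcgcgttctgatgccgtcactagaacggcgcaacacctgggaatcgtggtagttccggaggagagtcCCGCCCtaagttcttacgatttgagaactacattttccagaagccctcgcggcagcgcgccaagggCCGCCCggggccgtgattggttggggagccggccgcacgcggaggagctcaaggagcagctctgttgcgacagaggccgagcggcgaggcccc
Abcf3 upstream, chr16:20548353-20548602, plus strand: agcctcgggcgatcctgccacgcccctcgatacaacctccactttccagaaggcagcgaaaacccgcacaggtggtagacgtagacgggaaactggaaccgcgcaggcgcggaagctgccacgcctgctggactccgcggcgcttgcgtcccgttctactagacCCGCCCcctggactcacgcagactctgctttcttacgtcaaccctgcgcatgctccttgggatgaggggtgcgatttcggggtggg
Abcg2 upstream, chr6:58584283-58584532, plus strand: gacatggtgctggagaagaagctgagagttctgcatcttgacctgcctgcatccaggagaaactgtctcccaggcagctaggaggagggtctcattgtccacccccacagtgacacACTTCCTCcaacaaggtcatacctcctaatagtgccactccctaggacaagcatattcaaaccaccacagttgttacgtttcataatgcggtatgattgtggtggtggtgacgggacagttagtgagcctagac
In the Abcg2 sequence the capitals are the PU.1 site read on the opposite strand, 134 bases before this start. Abcg2 had 3 starts in the table, and the others held no GAGGAAGT. In the Abcf1 sequence they are an E-box and 2 GC boxes, and in those of Abcf2 and Abcf3 they are GC boxes.

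Promoter windows of 300 bases, from 250 before to 50 after the start, were found for 35 of the 45 members, with 42 windows in all. The PU.1 site was in 3 of these 42 windows, those of Abcc10, Abcg2 and Abcg3, and in 3.2% of all 32851 windows in the table. The ETS site was in 6, adding Abca13, Abcb4 and the next Abcg2 start, against 9.35% of all. The AP-1 site was in 0 of 42 windows, against 7.81% of all. The E-box was in 5 of 42, against 7.15% of all, and the GC box in 21 of 42, against 35.7% of all. The 3 genes with a PU.1 site had differences of 0.16 (Abcc10), 0.20 (Abcg2) and -0.14 (Abcg3), each with an unadjusted limma p above 0.05. These matches describe the letters in the windows and show no binding.

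Among the 45 ABC genes, 0 passed the limma test at a BH adjusted p under 0.05, as did 0 of all 44991 probe sets (0%). The smallest adjusted p was 0.382, for Abcc1. At an unadjusted p under 0.05 there were 3 members, Abca2 and Abcf1 higher and Abcc1 lower in the knockdown pools, beside 7.63% of all genes (4.1% higher and 3.52% lower). Groups did not overlap for 6 members, namely these 3 with Abcb1a, Abcb8 and Abcg4 higher, against 13.8% of all genes (8.42% higher and 5.39% lower). As shares of the family these are 6.67% and 13.3%, near the background. The median difference of the family was -0.032, against 0.018 for all genes, with 20 members higher and 25 lower where 53.4% of all genes were higher. Differences above 0.5 in size were seen for 2 members, Abcc1 and Abca2, or 4.44%, against 7.52% of all genes.

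**Figure D1:**
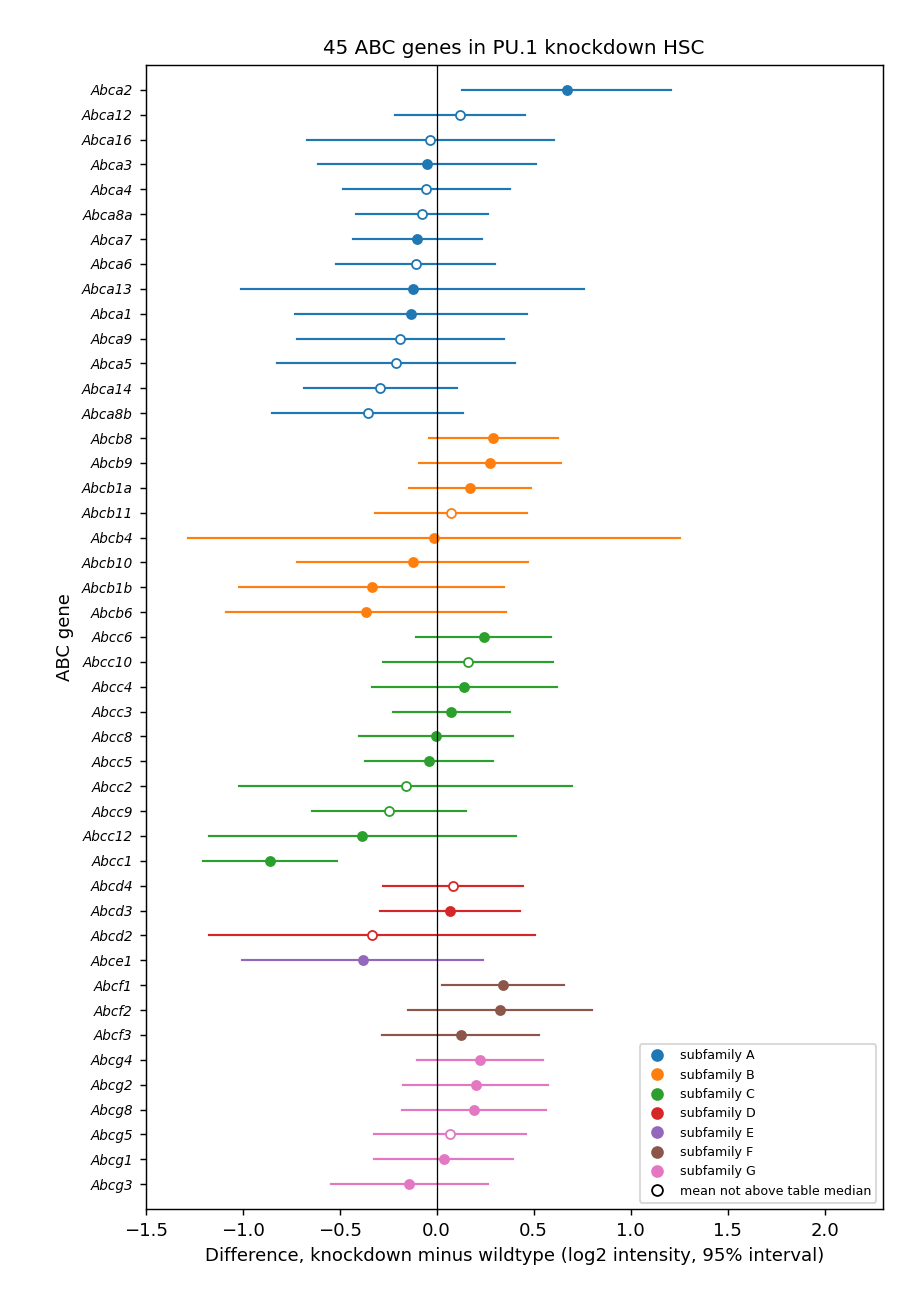
Difference of each of the 45 ABC genes between knockdown and wildtype pools (x axis, log2 intensity, with the 95% interval of the limma fit), grouped by subfamily. Open circles are genes whose mean is not above the median of all probe sets. The intervals of Abcc1, Abca2 and Abcf1 exclude 0, and the interval of Abcb4 is the widest shown.

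The subfamilies divided as follows. Subfamily A, mostly lipid transporters, had 12 of 14 means lower, with a median difference of -0.10, but 9 of the 14 were not above the median probe set. Leaving out wildtype pool 1 brought the lower members to 8, and leaving out wildtype pool 2 to 9. Subfamily B had 4 higher and 4 lower, subfamily C, which holds the conjugate and nucleotide exporters, 4 higher and 6 lower, and subfamily D, mostly of peroxisomes, 2 higher and 1 lower. All 3 F genes had higher means (median 0.33), as did 5 of 6 G genes (median 0.13), while the single E gene, Abce1, had a lower mean. Other subfamilies also moved with single arrays. Without wildtype pool 1 subfamily B had 6 higher and 2 lower and subfamily C 7 higher and 3 lower, the latter also without knockdown pool 2. Subfamily D had 1 higher and 2 lower without wildtype pool 1 or 2. The F median was 0.16 without wildtype pool 2 and 0.17, with 2 of 3 higher, without knockdown pool 1. The G genes came to 3 higher and 3 lower without wildtype pool 3 (median 0.058) and without knockdown pool 1 (median 0.016). Of the 16 members not above the median probe set, 0 had an unadjusted p under 0.05 in limma and 0 had groups that did not overlap, against 7.53% and 12.01% of all genes of that brightness. The 3 and 6 members counted above thus lie among the 29 brighter ones, as 10.3% and 20.7% of them, beside 7.68% and 14.7% of all brighter genes. Such brightness was reached by 29 of 45 members and by 66% of all genes.

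The efflux pumps known from stem cells come first. Abcg2, the pump behind the side population, read 9.36, 9.77 and 9.46 in the wildtype pools, numbered 1 to 3, and 9.63, 9.70 and 9.87 in those of the knockdown, an order kept below. The groups overlapped, since wildtype pool 2 lay above 2 of the knockdown pools. The means were 9.53 ± 0.21 and 9.74 ± 0.12 (SD, n = 3), a difference of 0.20 (SE 0.16, 95% interval -0.17 to 0.58, limma adjusted p by BH 0.835). It was 0.12 without wildtype pool 1, 0.13 without knockdown pool 3 and 0.32 without wildtype pool 2.

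Abcb1a and Abcb1b encode the rodent forms of P-glycoprotein, which expels many drugs and dyes. Abcb1a read 6.71, 6.89 and 6.83 in wildtype and 7.06, 6.89 and 6.99 in knockdown pools. The groups did not overlap, but wildtype pool 2 and knockdown pool 2 were equal to 2 decimals. In the deposited intensities the groups overlapped, at 90.4, 107.8 and 99.8 in wildtype and 107.6, 99.4 and 112 in knockdown pools. The difference of Abcb1a was 0.17 (SE 0.14, limma adjusted p by BH 0.833), or 0.079 without knockdown pool 1. Its dimmer probe set, 1419758_at, differed by 0.44 (SE 0.18), with groups that overlapped and a mean well below the median of all probe sets. Abcb1b read 6.73, 7.92 and 7.03 in wildtype and 6.67, 7.03 and 6.98 in knockdown pools. Wildtype pool 2 alone stood above the others, where the stem and progenitor list was also highest (10.17, beside 9.38 and 9.43 in the other wildtype pools and 9.30 to 9.43 in the knockdown pools). The difference of Abcb1b was -0.33 (SE 0.30) with all arrays and 0.010 without wildtype pool 2. Its dimmer probe set, 1446701_at, differed by 0.031 (SE 0.15) and was highest in wildtype pool 3 (5.86). The part of stem cells in these values was not tested.

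Abcc1, the multidrug resistance protein that exports glutathione conjugates and leukotriene C4, had the smallest p of the family. It read 9.78, 10.11 and 9.84 in wildtype and 9.02, 9.14 and 9.0 in knockdown pools on probe set 1452233_at. All 3 knockdown pools were below all wildtype pools, and the pools within each group lay close together. The deposited intensities averaged 976 ± 154 and 504 ± 58.3 (SD, n = 3). The difference was -0.86 (SE 0.15, 95% interval -1.20 to -0.51), or 0.552 of the wildtype level on this scale, with a limma p of 0.00046 that gave an adjusted p of 0.382 by BH. This p ranked 27 among the 18186 genes. Permuting the 6 values over the arrays gave an exact two-sided p of 0.1, the lowest possible with 3 arrays against 3.

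With 1 array left out in turn, the Abcc1 difference ran from -0.925 to -0.757 and its adjusted p from 0.253 to 0.757 in limma. The second Abcc1 probe set, 1421378_s_at, read 6.05 to 6.47 in wildtype and 6.11 to 6.84 in knockdown pools, with a mean over the 6 arrays below the median of all probe sets and a difference of 0.12 (SE 0.22). Both probe sets of this gene thus disagree in sign.

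**Figure D2:**
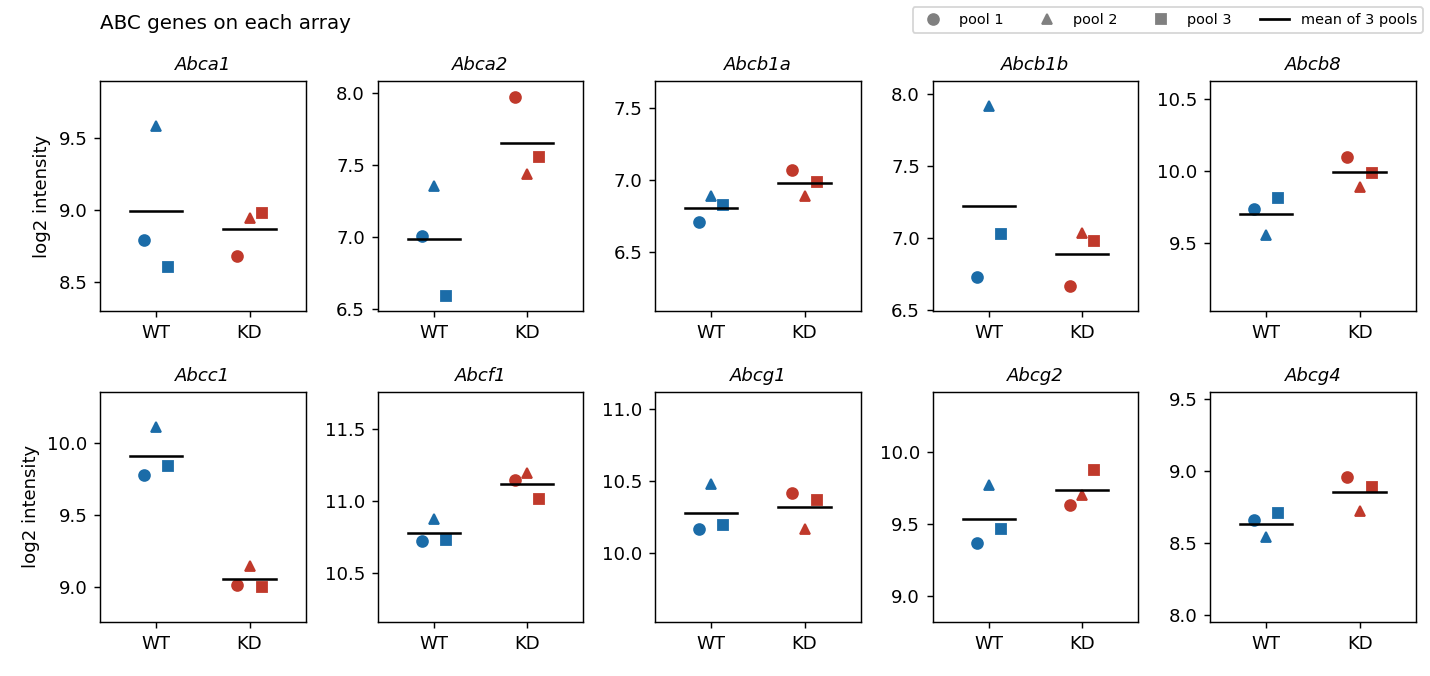
Log2 intensity (y axis, scaled separately for each gene) of 10 ABC genes on each of the 6 arrays, wildtype in blue and knockdown in red. Symbols mark pools 1, 2 and 3, and lines the mean of 3 pools. Abcc1 is lower in all knockdown pools, while Abcg2, Abcg1, Abca1 and Abcb1b overlap between the groups.

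On their brightest probe sets the other 9 members of subfamily C had smaller differences than Abcc1. Abcc4, which exports cyclic nucleotides and is found in platelet dense granules, read 9.60, 9.07 and 9.83 in wildtype and 9.57, 9.70 and 9.67 in knockdown pools. Its difference was 0.14 (SE 0.21), and -0.073 without wildtype pool 2. It overlapped between the groups and had a higher mean in the knockdown pools. The 9 megakaryocyte and platelet markers had a mean difference of -1.37, with single markers from -2.59 to -0.48. Whether the Abcc4 values follow these cells was not tested. Abcc5, another cyclic nucleotide exporter, had 10 probe sets, all with a negative sign, from -0.43 to -0.022. That of highest mean differed by -0.038 (SE 0.14), and 1435684_at, singled out after its values were seen, by -0.43 (SE 0.15), with groups that did not overlap. The sulphonylurea receptor Abcc8, a channel subunit rather than a pump, differed by -0.0016 (SE 0.17).

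Abcc12, a close relative of Abcc5, had 2 probe sets of negative sign but unequal size. The brighter read 8.74 to 9.11 in wildtype and 9.18, 7.75 and 8.81 in knockdown pools, where pool 2 alone was low. The difference was -0.38 (SE 0.34), and 0.035 without that pool. The dimmer 1446170_at, also singled out after its values were seen, read 6.04, 5.47 and 6.20 in wildtype and 4.75, 5.04 and 4.45 in knockdown pools. Those groups did not overlap, and the difference of -1.15 (SE 0.23) had a limma p of 0.00125 and a BH adjusted p of 0.437. It was the largest difference among the 92 probe sets of the family, at a level below the median of all probe sets.

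Among the sterol and lipid transporters, Abca1, which loads cholesterol onto lipid-poor apolipoproteins, read 8.79, 9.59 and 8.61 in wildtype and 8.68, 8.94 and 8.98 in knockdown pools. As for Abcb1b, wildtype pool 2 was highest, and the difference of -0.13 (SE 0.26) became 0.17 without that pool. The other Abca1 probe sets, 1421839_at and 1450392_at, had the opposite sign, at 0.28 (SE 0.19) and 0.15 (SE 0.13). Both lay well below the median of all probe sets. Abcg1, which passes cholesterol to high-density lipoprotein, read 10.17, 10.48 and 10.20 in wildtype and 10.42, 10.16 and 10.37 in knockdown pools. The groups overlapped throughout, with a difference of 0.036 (SE 0.15, 95% interval -0.32 to 0.39), whose sign turned with the values as deposited (-0.013).

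Abcg4, a sterol exporter related to Abcg1, read 8.66, 8.54 and 8.71 in wildtype and 8.96, 8.72 and 8.89 in knockdown pools. The groups did not overlap, narrowly, and the difference was 0.22 (SE 0.14, limma adjusted p by BH 0.790). On its dimmer probe set, 1424437_s_at, the groups overlapped, with a difference of 0.082 (SE 0.54). Abca7, a lipid transporter of phagocytes, differed by -0.10 (SE 0.14), and Abca3, known for surfactant lipids of the lung, by -0.050 (SE 0.24).

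Abca2, an endolysosomal lipid transporter, had the largest positive difference among the gene values. It read 7.01, 7.35 and 6.59 in wildtype and 7.97, 7.43 and 7.55 in knockdown pools. All knockdown pools lay above the wildtype pools, though knockdown pool 2 exceeded wildtype pool 2 only slightly. The difference was 0.67 (SE 0.23, 95% interval 0.13 to 1.21), a ratio of 1.59, with a limma p of 0.0212 and a BH adjusted p of 0.641. Leaving out knockdown pool 1 gave 0.46, and leaving out wildtype pool 2 gave 0.85. Deposited intensities were 118 ± 37.4 and 180 ± 30.8, and wildtype pool 2, at 157, was then above knockdown pool 2, at 153.

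Members of intracellular membranes were measured as well. Abcb8, of the inner mitochondrial membrane, read 9.74, 9.55 and 9.81 in wildtype and 10.10, 9.89 and 9.99 in knockdown pools. The groups did not overlap, and its 2 probe sets differed by 0.29 (SE 0.14) and 0.26 (SE 0.14), with a limma adjusted p of 0.734 by BH for the former. Abcb9, a lysosomal peptide transporter, had 3 probe sets of positive sign, from 0.28 to 0.61, and on the brightest its groups overlapped. The value of 0.61 (SE 0.25) came from the dimmest, 1430394_a_at, well below the median of all probe sets. The peroxisomal Abcd3 differed by 0.070 (SE 0.15), and by -0.044 without wildtype pool 2.

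The members that act on ribosomes, Abcf1 to Abcf3 and Abce1, lay above the median probe set, and the means in the knockdown pools were higher for the 3 F genes and lower for Abce1. Abcf1, which binds ribosomes and the initiation factor eIF2, read 10.72, 10.87 and 10.73 in wildtype and 11.15, 11.20 and 11.02 in knockdown pools. The groups did not overlap, and the difference was 0.34 (SE 0.14, 95% interval 0.03 to 0.66), a ratio of 1.27, with a limma p of 0.0355 and a BH adjusted p of 0.676. Deposited intensities averaged 1761 ± 157 and 2202 ± 150.3. Its 6 probe sets differed by 0.11 to 0.54, and only the brightest had groups that did not overlap. The unadjusted limma p of Abcf1 was not under 0.05 without wildtype pool 1 or 3 or knockdown pool 1 or 2. Nor was it with the values as deposited, with the pool number in the model or with the mean of its probe sets. It stayed under 0.05 in the other alternatives.

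Abcf2 differed by 0.33 (SE 0.20) and Abcf3 by 0.12 (SE 0.18), and both overlapped between the groups. Abcf2 was at 0.16 without wildtype pool 2, and Abcf3 at -0.050 without knockdown pool 1. Over the subfamily, 11 of 11 probe sets had a positive sign. The count was 10 with the values as deposited, with a pseudocount of 64, with array weights and without wildtype pool 2. It was 9 without knockdown pool 2 and 8 without knockdown pool 1. Abce1, which splits ribosomes after translation ends, read 10.54, 10.42 and 10.69 in wildtype and 9.53, 10.57 and 10.40 in knockdown pools. Knockdown pool 1 alone was low, and the difference of -0.38 (SE 0.27) was -0.042 without it. A second bright Abce1 probe set differed by 0.018 (SE 0.18).

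**Figure D3:**
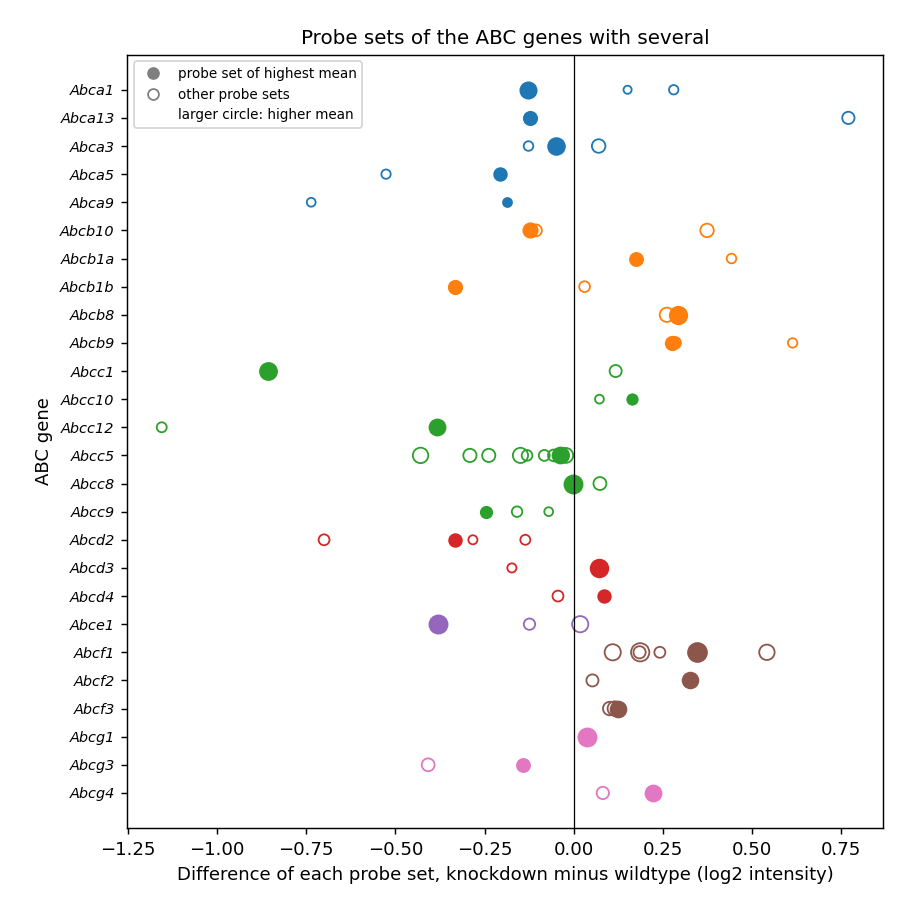
Difference of every probe set (x axis, knockdown minus wildtype, log2 intensity) of the 26 ABC genes with several. Filled circles are the probe set of highest mean, and larger circles have a higher mean over the 6 arrays. All 6 Abcf1 probe sets lie above 0 and all 10 Abcc5 probe sets below 0, while the 2 of Abcc1 lie on either side.

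Of the 26 members with several probe sets, 16 had the same sign on all of them. Members that adjoin each other in the RefSeq gene table, with no other protein-coding gene between them, formed 7 pairs. The run of Abca8b, Abca8a, Abca9, Abca6 and Abca5 had differences of -0.36, -0.076, -0.19, -0.11 and -0.21, each at or below the median probe set. The pair Abcg5 and Abcg8, which act together as a sterol exporter, had 0.067 and 0.19. The neighbours Abcb1a, Abcb1b and Abcb4 had 0.17, -0.33 and -0.013. None of these genes had an unadjusted p under 0.05 in limma.

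Several members varied between pools of the same genotype by more than they differed between genotypes. Abcb4, a phospholipid transporter of bile, read 9.21, 8.22 and 9.05 in wildtype and 8.30, 10.16 and 7.98 in knockdown pools. Knockdown pool 2 was the highest of all and the difference was -0.013 (SE 0.55). Abcb6, which carries porphyrins, read 8.71, 7.75 and 8.44 and then 7.61, 8.49 and 7.70, and Abcb10, a mitochondrial transporter of the erythroid lineage, read 8.0, 7.19 and 7.94 and then 7.26, 7.86 and 7.65. The mean of the 7 erythroid markers was 9.39, 8.01 and 9.05 in wildtype and 8.55, 9.76 and 8.57 in knockdown pools. Wildtype pools 1 and 3 and knockdown pool 2 were the highest 3 arrays for the list mean and for the brightest probe set of Abcb4, Abcb6 and Abcb10. Of the markers, Klf1, Epor, Ermap and Car1 had the same 3 highest arrays, but Hba-a1, Alas2 and Slc4a1 did not. The other Abcb10 probe sets had other orders. The second in brightness, 1454265_a_at, was higher in all knockdown pools (7.24 to 7.40) than in all wildtype pools (6.75 to 7.03), with a difference of 0.37 (SE 0.15) and a limma adjusted p of 0.676 by BH, while the brightest differed by -0.12 (SE 0.26). The dimmest, 1416403_at, was highest in wildtype pools 1 and 3 and knockdown pool 1. The part of erythroid cells in these values was not tested.

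Abca13, a large lipid transporter gene, read 7.77, 6.14 and 7.30 in wildtype and 6.75, 6.87 and 7.22 in knockdown pools. Abcd2, a peroxisomal fatty acid transporter, read 7.30, 5.96 and 7.20 and then 6.80, 6.10 and 6.57. Both were lowest in wildtype pool 2, as was the mean of the 12 neutrophil markers. That mean was 10.09 there, beside 11.80 and 11.34 in the other wildtype pools and 11.23 to 11.72 in the knockdown pools. Wildtype pool 2 was also the lowest array for the erythroid (8.01), mast cell and basophil (6.23) and T and NK cell (6.91) markers. It was not the lowest for the other marker lists, and was the highest for stem and progenitor markers (10.17). Without wildtype pool 2 the difference of Abcd2 was -0.75 and that of Abca13 -0.58, in place of -0.33 and -0.12, with limma adjusted p by BH of 0.425 and 0.537. Without wildtype pool 1 that of Abca13 was 0.23. Its dimmer probe set, 1440370_at, had the opposite sign, at 0.77 (SE 0.40), which was the largest positive difference of the 92 probe sets, with groups that overlapped and a limma adjusted p of 0.745 by BH. The part of neutrophils or of other cell types in these values was not tested. Among the 29 brighter members, the median SD within groups was 0.199, against 0.200 over all genes of that brightness.

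**Figure D4:**
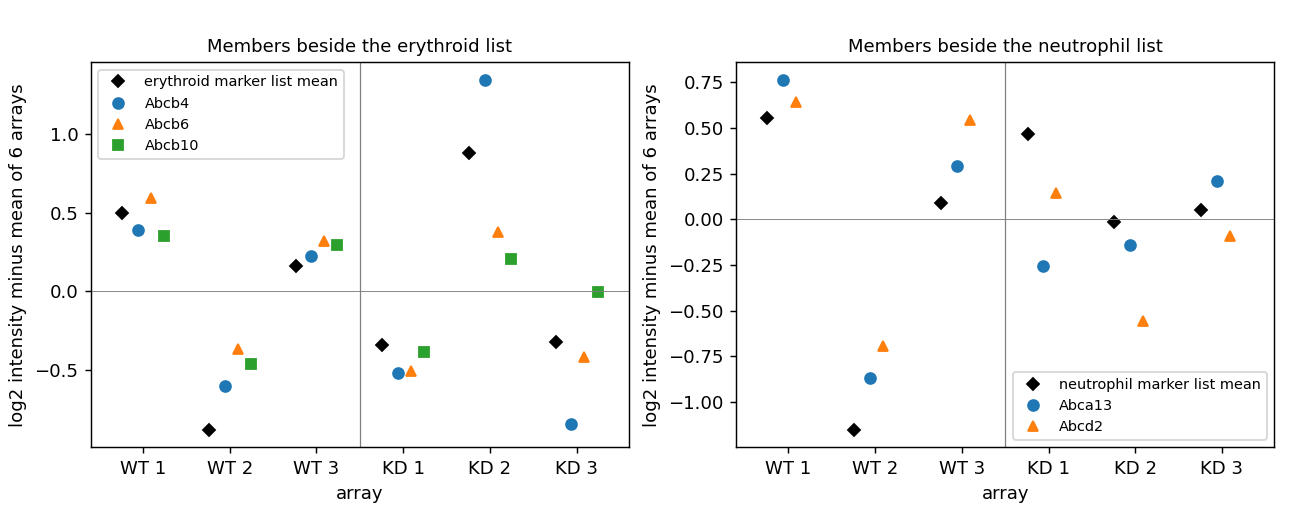
Log2 intensity on each array minus the mean of the 6 arrays (y axis) for the brightest probe sets of Abcb4, Abcb6 and Abcb10 beside the mean of 7 erythroid markers, and for those of Abca13 and Abcd2 beside the mean of 12 neutrophil markers (black diamonds). Wildtype pool 2 is low on both sides, and knockdown pool 2 is highest for Abcb4 and for the erythroid list.

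Genes that work with ABC proteins were taken from fixed lists, and 0 of them passed the limma test over all probe sets by BH. Of 3 family members with other symbols, the peptide transporter subunits of antigen presentation Tap1 and Tap2 differed by 0.54 (SE 0.29) and 0.40 (SE 0.20), and Cftr, a chloride channel, by -0.21 (SE 0.19). Among the 6 genes of peptide loading, all had higher means and 0 had an unadjusted p under 0.05 in limma, with Tapbp at 0.26 (SE 0.21) and Erap1 at 0.21 (SE 0.14).

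Of 16 sterol genes, 8 were higher and 8 lower, and 1, Rxra, the partner of the sterol-sensing receptors, had an unadjusted p under 0.05 (0.49, SE 0.19). Nr1h3, the sterol receptor LXR alpha, differed by 0.19 (SE 0.14), Insig1 by -0.43 (SE 0.24) and Ncoa1 by -0.38 (SE 0.26). Among 13 regulators of efflux pumps, Pparg, at a low level, had an unadjusted p under 0.05 (0.57, SE 0.20), with Epas1 at 0.34 (SE 0.15), Nr1i2 at -0.19 (SE 0.29) and Arnt at -0.12 (SE 0.16). Of 13 peroxisome genes, Pex10 (0.45, SE 0.17) and Pex26 (0.31, SE 0.13) had an unadjusted p under 0.05, and Pex2 and Pex7 differed by -0.24 (SE 0.17) and -0.21 (SE 0.18). Groups did not overlap for 5 of those 13 (38.5%), 4 higher and 1 lower, beside 13.8% of all genes (8.42% higher and 5.39% lower).

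Of 8 genes that supply or use glutathione, which the pump Abcc1 exports in conjugates, 1 had an unadjusted p under 0.05. This was Gclm, the regulatory subunit of glutamate-cysteine ligase, whose means of 9.84 in wildtype and 10.69 in knockdown pools came from groups that did not overlap. It differed by 0.85 (SE 0.17, limma adjusted p by BH 0.426). Its catalytic partner Gclc differed by -0.27 (SE 0.24), Gstp1 by 0.26 (SE 0.14) and Gsr by -0.57 (SE 0.51). Of 8 ribosome recycling and translation partners, Pelo, which acts with Abce1, differed by 0.34 (SE 0.14, unadjusted p under 0.05 in limma), Gspt1 by 0.15 (SE 0.19), Eif2s3x by -0.12 (SE 0.23) and Eif2ak4 by -0.049 (SE 0.20).

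Of 11 mitochondrial iron and haem genes, 0 had an unadjusted p under 0.05 in limma, with Fech at 0.35 (SE 0.20), Aco1 at 0.16 (SE 0.15), Slc25a37 at -0.37 (SE 0.17) and Iscu at -0.17 (SE 0.15). The channel partners of the sulphonylurea receptors, Kcnj8 and Kcnj11, differed by 0.12 (SE 0.20) and -0.027 (SE 0.15). Over all lists, 6 of the 80 genes measured had an unadjusted p under 0.05 in limma (7.5%, beside 7.63% of all genes). All 6 of them were higher, where 4.1% of all genes were higher and 3.52% lower at this p. Groups did not overlap for 13 of the 80 (16.25%, beside 13.8% of all genes), 12 higher and 1 lower. The shares over all genes were 8.42% higher and 5.39% lower. The lists were chosen with earlier results of these data known, and their lean was not tested.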

How the data were processed

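The authors deposited a linear intensity for each probe set on each array. Per the labels' protocols, column-purified RNA was amplified in 2 rounds and labelled with biotin, a procedure that favours 3′ ends and makes weak transcripts noisier. The sources used here do not name the software, background correction or scaling. Values under 1 were set to 1, log2(value + 16) was taken, which understates folds of weak probe sets, and arrays were quantile normalised because their medians spread by over 0.1. The limma package (version 3.58.1, R 4.3.3, lmFit, then eBayes) tested all 44991 probe sets two-sided without covariates, at a threshold of 0.05 after Benjamini-Hochberg adjustment. The same fit was also run on simulated data, whose outcome is not reported here.

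Gene names came from the platform annotation, and gene IDs of all 45 members were found in RefSeq's GRCm38.p6 table. Members given on every array were 6 fixed by name (Abcg2, Abcb1a, Abcb1b, Abcc1, Abca1 and Abcg1) and those with groups that did not overlap or an unadjusted p under 0.05. Of each list of partner genes, up to 2 of smallest p per direction were named. The members, lists and rules were chosen with earlier results of these data known. Motifs and figures were made with Python 3.11.15 and matplotlib 3.10.9. The number of arrays limits the precision, and array values have no read depth.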

Additional observations from a re-analysis of the deposited data

How the results depend on the processing

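With 3 arrays a group, the number of arrays limits every value. Under all 17 alternatives, 0 of the ABC genes passed the limma test (BH), and the 168 recomputed values of the 10 members given on every array held none past the threshold, with a smallest adjusted p of 0.253. With the mean of all probe sets of a gene, 5 members had an unadjusted p under 0.05 in limma (11.1%, beside 8.39% of all genes). They were Abca2, Abcb1a, Abcb9, Abcc1 and Abcc12. With an array left out the count was 1 to 5 (2.22% to 11.1%, beside 5.33% to 9.85% of all genes). Abcc1 was among the members with such a p in all 17 alternatives. Groups did not overlap for 8 to 12 members with an array left out (17.8% to 26.7%, beside 22.3% to 28.6% of all genes), where fewer values are compared. This held for 4 members with the values as deposited and for 4 with a pseudocount of 64 (8.89% each, beside 13.8% of all genes). With arrays centred on their medians it held for 5 (11.1%, beside 14.3%). The family median ran from -0.044 to 0.080 with an array left out, and 18 to 27 members were higher. Above the 60th percentile 10 of 21 members were higher, since fewer were tested. The values as deposited moved the median of all probe sets to -0.048, from 0.009.

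Of the 45 members, 22 changed sign with at least 1 array left out, up to 11 of them at once (without wildtype pool 1), 8 changed sign under another alternative, and 22 under none. Among the 10 members given on every array, signs turned for Abcg1 (-0.013 as deposited, -0.012 with a pseudocount of 64, -0.019 to 0.14 without 1 array), Abca1 (0.044 with array weights, 0.10 with the mean of probe sets, -0.325 to 0.17 without 1 array) and Abcb1b (-0.582 to 0.010 without 1 array). Among pathway genes they turned for Kcnj11 (0.024 centred, 0.0092 with the mean of probe sets, -0.11 to 0.038 without 1 array), Nr1i2 (0.019 with the mean of probe sets, -0.518 to 0.072), Gspt1 (-0.16 with the mean of probe sets), Eif2s3x (-0.317 to 0.13), Eif2ak4 (-0.23 to 0.10), Kcnj8 (-0.080 to 0.28) and Gclc (-0.437 to 0.017). The cause was not tested.

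The labels number pools 1 to 3 in both groups, but same-numbered pools had deviations correlated at 0.18, 0.061 and -0.039, so the numbers were not taken to pair the samples. With the replicate block, 2 members (4.44%, beside 7.65% of all genes) had an unadjusted p under 0.05 in limma in place of 3, and 0 passed after adjustment.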
